A study of Mus musculus with 300 samples.

Results

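The genes described here encode the nuclear subunits of oxidative phosphorylation. They are the gene names of the expression matrix that begin with Ndufa, Ndufb, Ndufc, Ndufs or Ndufv and a digit, with Uqcr or Atp5, or with Cox and a digit of the structural cytochrome oxidase series, together with the 4 Sdh subunit genes and Cycs. This rule used names only and took 85 of 23354 gene names: 37 of complex I, 4 of complex II, 8 of complex III, 18 of complex IV, 17 of complex V and cytochrome c. Of these, 79 stood at 1 FPKM (fragments scaled to transcript length and to library size) or more in at least 30 cells and entered the tests, beside 10411 genes in all.

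Oxidative phosphorylation takes place in the inner mitochondrial membrane. Complexes I and II pass electrons from NADH and succinate to ubiquinone, complex III passes them to the small carrier cytochrome c, complex IV passes them to oxygen, and complex V, the ATP synthase, uses the resulting proton gradient to make ATP. All of complex II and most subunits of the other complexes are encoded in the nucleus and imported. In the testis several subunits and carriers have a second gene that is used mainly in germ cells, and spermatogenic cells are known to change their use of glycolysis and respiration as they mature.

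The cells were spermatogonia of untreated adult mice with the ID4-EGFP reporter, whose fluorescence follows the stem cell factor ID4. All 300 cells shared the reporter and the same sort, which took cells bright for CD9 and positive for EGFP after Percoll enrichment. Single cells were captured on Fluidigm C1 chips, imaged, and turned into cDNA with a SMARTer kit. The cells were grouped by EGFP epifluorescence into quartile Q1, the brightest, with 79 cells, Q2 with 78, Q3 with 71, and Q4, the dimmest, with 72. They came from 4 preparations of 67, 82, 71 and 80 cells, each pooled from several mice, and a preparation and quartile together held 15 to 22 cells. The comparison asks how expression differs along reporter brightness within the sorted pool. The preparation was the replicate (n = 4), so each gene had 16 values, the mean over the cells of a preparation and quartile of log2(FPKM + 1).

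Cells differed in how many genes they held. The number of genes at 1 FPKM or more ran from 2934 to 7817 per cell, and averaged 5687 ± 697 in Q1 and 5356 ± 810 in Q4 (SD, n = 4 preparations). Preparation 1 averaged 4368 genes per cell, below the 5813, 5572 and 6216 of preparations 2, 3 and 4. Raw counts were not used here, so the depth in reads is not given. All 5 germ line markers were detected, in a median of 99.7% of cells, and their summed level ran from 1906 to 2350 FPKM over the Q1 means and from 2296 to 2795 over the Q4 means. Of 10 spermatogonial markers, the brightest quartile was higher for 3 and lower for 3 against Q4, and their summed level was 905 to 1144 FPKM in Q1 and 1157 to 1638 in Q4. Markers of later germ cells were low. The 5 pachytene spermatocyte markers in the matrix summed to 111 to 145 FPKM in Q1 and 119 to 212 in Q4, and the 5 spermatid markers to 53.1 to 93.1 in Q1 and 19.2 to 69.8 in Q4, with 0 of 5 at 0 in each list. Somatic markers were lower still in most means. The 6 Sertoli markers summed to 0.514 to 8.46 FPKM in Q1 and 3.57 to 21.2 in Q4, the 4 peritubular myoid markers to 0 to 6.45 in Q1 and 0 to 235 in Q4, and the 5 macrophage markers in the matrix to 0 to 352 in Q1 and 1.75 to 111 in Q4. The 5 Leydig markers summed to 0.756 to 3.33 FPKM in Q1 and 0.0140 to 2.77 in Q4, the 5 endothelial markers to 5.71 to 10.2 in Q1 and 0 to 5.62 in Q4, and the 3 erythroid markers to 0 to 0.305 in Q1 and 0 to 4.33 in Q4. The defining markers Cyp17a1 and Hsd3b1 of Leydig cells and Hba-a1 and Hba-a2 of red cells were listed at 0. The part of other cells in the results was not tested.

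The nuclear genes of oxidative phosphorylation were abundant in almost every cell. Together they took 6.45% of a cell's summed FPKM on average, with a range from 3.69% to 10.7% over the 300 cells. In a cell, 58 to 79 of the 85 genes stood at 1 FPKM or more, with a median of 74. By gene, 20 stood at that level in every cell and 65 in at least 90% of cells. Levels spanned several orders of magnitude. Cox6a1, the common form of a nuclear subunit that borders the complex IV dimer, was highest at 3109 FPKM on average. It was followed by Cox4i1, the common form of the largest nuclear complex IV subunit, at 1973 FPKM, and by the accessory complex I subunit Ndufb9 at 1533 FPKM. Ndufa7 followed at 1023 FPKM, Ndufa4, which was first assigned to complex I and is now placed with complex IV, at 921 FPKM, and the ATP synthase c-ring gene Atp5g3 at 911 FPKM. The median over members was highest for complex III, at 444 FPKM, followed by complex V at 279, complex I at 223, complex II at 183 and complex IV at 134 FPKM, the last lowered by its tissue forms. The most abundant gene of complex III was Uqcrh, the hinge protein, at 844 FPKM, and of complex II the iron-sulfur subunit Sdhb at 389 FPKM.

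**Figure D1:**
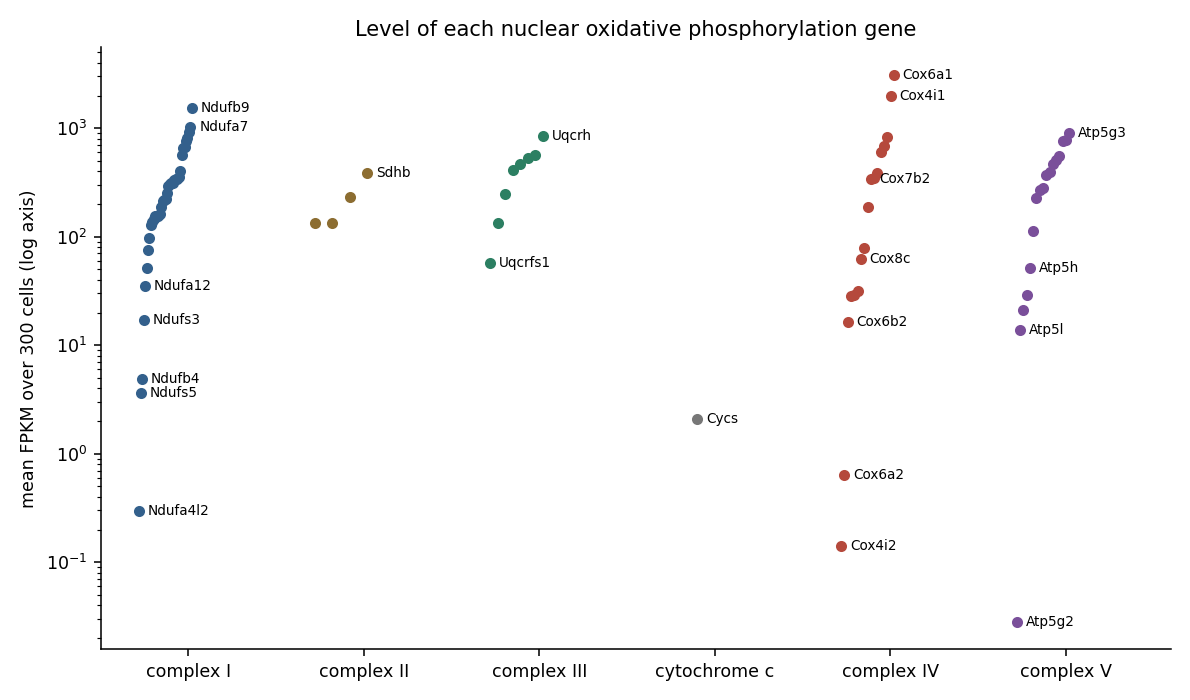
Mean FPKM over the 300 cells (log axis) of each gene, 1 point per gene, by complex. Cox6a1 leads at 3109 FPKM, the median gene stands at 248 FPKM, and Cycs, Ndufs5, Ndufb4 and several tissue forms lie far below; Cox8b, listed at 0 in every cell, is not drawn.

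Across brightness the transcripts of oxidative phosphorylation differed little, and the genes that passed the test were lower in bright cells. Between Q1 and Q4, 0 of 79 tested members were higher and 3 were lower at an adjusted p under 0.05 (limma). Over all tested genes, 2.72% were higher and 0.528% were lower, so the members' share of lower calls, 3.80%, stands on 3 genes. The same 3 genes fell along the 4 quartiles in the linear trend and 0 rose, where 3.55% of all tested genes rose and 0.692% fell. They were Cox6a1 and the complex I accessory subunits Ndufa2 and Ndufa12. At an unadjusted p under 0.05, 1 member was higher and 13 were lower, or 1.27% and 16.5% of the 79, beside 12.03% and 4.32% of all tested genes. Of the fitted differences, 48 of 79 were negative (60.8%) with a median of -0.10, beside 40.4% negative and a median of 0.10 over all tested genes. With the number of genes detected as a covariate, 41 of 79 were negative and both medians were -0.01.

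Cox6a1 was lower in the brightest cells in every preparation. Its mean log2(FPKM + 1) was 11.51, 11.19, 11.01 and 11.34 in Q1 of preparations 1 to 4, against 11.80, 11.64, 11.93 and 11.61 in Q4. All 4 values of Q1 lay below all 4 values of Q4. On the linear scale it averaged 2712 ± 480 FPKM in Q1 and 3817 ± 484 FPKM in Q4 (SD, n = 4). The difference was -0.48 (SE 0.10, adjusted p = 0.00670) and the trend -0.13 per quartile (SE 0.03, adjusted p = 0.0163). The steps between were uneven, with a mean of 11.36 ± 0.11 in Q3 and 11.49 ± 0.16 in Q2. Without preparation 3 the difference was -0.34 and the call was lost (adjusted p = 0.130). Cox6a1 lies on chromosome 5 from 115345642 to 115348981, on the minus strand (GRCm38, GENCODE M21).

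Ndufa2, a small accessory subunit in the matrix arm of complex I, was likewise lower in Q1 in 4 of 4 preparations. Its mean log2 level was 8.52, 8.24, 8.88 and 8.89 in Q1 and 9.41, 9.18, 9.22 and 9.36 in Q4, and the groups did not overlap. The difference was -0.66 (SE 0.16, adjusted p = 0.0174) and the trend -0.21 per quartile (SE 0.05, adjusted p = 0.0116). On the linear scale it averaged 499 ± 56.4 FPKM in Q1 and 703 ± 50.7 FPKM in Q4 (SD, n = 4). In Q3 its 4 preparations were close together, at 8.92 ± 0.02 (SD, n = 4). The call was lost without preparation 1, 2 or 4 (adjusted p = 0.0625, 0.137 and 0.0735). Ndufa2 lies on chromosome 18 from 36742332 to 36744557, on the minus strand.

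Ndufa12, an accessory subunit joined to complex I late in its assembly, had the lowest difference of the 79 members and a low level. Its mean log2 level was 3.47, 2.17, 3.49 and 3.51 in Q1, against 4.43, 4.79, 4.50 and 5.45 in Q4. Again all values of Q1 lay below those of Q4, and preparation 2 was lowest within Q1. The difference was -1.63 (SE 0.40, adjusted p = 0.0204) and the trend -0.51 per quartile (SE 0.13, adjusted p = 0.0191). It reached 1 FPKM in 70.1% ± 12.1 of the Q1 cells and 88.7% ± 4.87 of the Q4 cells (SD, n = 4), and averaged 26.7 ± 15.6 FPKM in Q1 and 51.9 ± 7.42 FPKM in Q4. The call was lost without preparation 2, 3 or 4 (adjusted p = 0.132, 0.0569 and 0.127). Ndufa12 lies on chromosome 10 from 94198720 to 94221443, on the plus strand. All 3 calls were lost when the mean number of genes detected entered the fit as a covariate (adjusted p = 0.105 for Cox6a1, 0.211 for Ndufa2 and 0.0510 for Ndufa12), with differences of -0.45, -0.55 and -1.95.

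**Figure D2:**
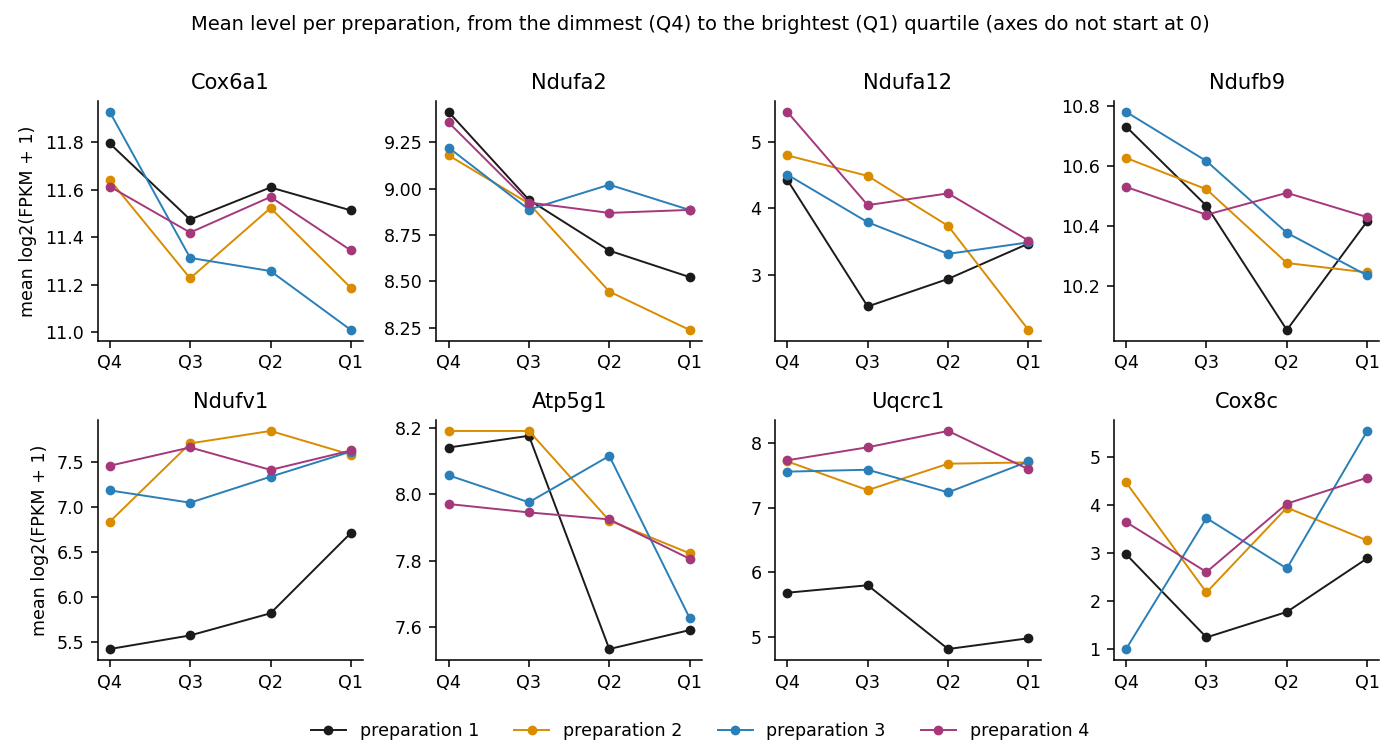
Mean log2(FPKM + 1) of 8 genes by quartile, from Q4, the dimmest, to Q1, the brightest, with 1 line per preparation; the vertical axes do not start at 0. Cox6a1, Ndufa2 and Ndufa12 are lower in Q1 than in Q4 in all 4 preparations, Ndufv1 is higher in Q1 in all 4 without passing the test, and Uqcrc1 is set apart in preparation 1.

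Within complex I, the 35 tested genes lay on both sides of 0, with 15 positive and 20 negative differences and a median of -0.09. The 7 core subunits, which carry the redox centres, had 5 positive differences and a median of 0.24; 0 passed in limma and 1, Ndufv1, had an unadjusted p under 0.05. Ndufv1, the subunit that binds NADH, had mean log2 levels of 6.72, 7.59, 7.62 and 7.63 in Q1, against 5.42, 6.84, 7.19 and 7.46 in Q4. Q1 was the higher in each preparation, but the groups overlapped, and the difference of 0.66 did not pass (SE 0.24, adjusted p = 0.154). The 27 tested accessory subunits of complex I had 10 positive and 17 negative differences, with a median of -0.12. Ndufb9 did not pass either. Its level was 10.42, 10.25, 10.24 and 10.43 in Q1 and 10.73, 10.63, 10.78 and 10.53 in Q4, without overlap, and it differed by -0.34 (SE 0.12, adjusted p = 0.120). Ndufa7 differed by -0.12 (SE 0.15) and Ndufa4 by -0.10 (SE 0.15), both with an interval that spans 0.

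The 4 subunits of complex II split evenly, with 0 past the threshold and 0 at an unadjusted p under 0.05 (limma). Sdha, the flavoprotein that oxidises succinate, differed by 0.46 (SE 0.29, adjusted p = 0.453) and the membrane anchor Sdhc by 0.38 (SE 0.32, adjusted p = 0.602). Sdhb differed by -0.28 (SE 0.21, adjusted p = 0.542) and the other anchor, Sdhd, by -0.18 (SE 0.34, adjusted p = 0.853). In complex III, 0 of 8 genes passed in limma and 1, Uqcr11, had an unadjusted p under 0.05. Its 3 larger subunits had a median of 0.37, with Uqcrfs1, the Rieske iron-sulfur protein, at 0.62 (SE 0.47), the core protein Uqcrc2 at 0.37 (SE 0.30) and the core protein Uqcrc1 at -0.18 (SE 0.25). All 5 small subunits had negative differences, from -0.37 for Uqcr11 (SE 0.16, adjusted p = 0.259) to -0.00044 for Uqcrq. Uqcrh differed by -0.13 (SE 0.14) and Uqcr10 by -0.17 (SE 0.19).

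Complex IV held the member with the lowest adjusted p, Cox6a1, and its differences went both ways, from -1.07 for Cox6b2 to 1.05 for Cox8c. Of 15 tested genes 8 had positive and 7 negative differences, with a median of 0.05, and 0 were higher and 2 lower, Cox6a1 and Cox6b2, at an unadjusted p under 0.05. Cox5b differed by -0.43 (SE 0.38, adjusted p = 0.631). Cox4i1 differed by -0.12 (SE 0.11, adjusted p = 0.675, 95% interval from -0.35 to 0.12). Cox6b1, a subunit on the intermembrane side, differed by 0.12 (SE 0.13), Cox7a2 by -0.20 (SE 0.19) and Cox8a by 0.05 (SE 0.15). Cox7a2l, which joins complexes III and IV in supercomplexes, differed by 0.38 (SE 0.25, adjusted p = 0.483).

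Of the 5 complexes, the ATP synthase had the lowest median difference, -0.22, though 0 of 16 genes passed in limma. Of the 16 differences 12 were negative, and 6 had an unadjusted p under 0.05, all lower in Q1. Over all tested genes, 40.4% of differences were negative and 4.32% were lower at an unadjusted p under 0.05. Among the c-ring genes, which build the rotor, Atp5g3 differed by -0.41 (SE 0.17, adjusted p = 0.207) and Atp5g1 by -0.38 (SE 0.18, adjusted p = 0.302). Atp5g1 had mean log2 levels of 7.59, 7.82, 7.63 and 7.81 in Q1 and 8.14, 8.19, 8.06 and 7.97 in Q4, without overlap. Atp5d, the delta subunit of the central stalk, differed by -0.48 (SE 0.22, adjusted p = 0.263) and Atp5c1, the gamma subunit of that stalk, by -0.40 (SE 0.16, adjusted p = 0.186). Atp5o, which joins the catalytic head to the peripheral stalk, differed by -0.36 (SE 0.16) and the membrane subunit gene Atp5j2 by -0.38 (SE 0.16). The catalytic head genes Atp5b and Atp5a1 differed by 0.02 (SE 0.17) and -0.09 (SE 0.27), the epsilon subunit gene Atp5e by 0.01 (SE 0.19), the stalk gene Atp5h by 0.07 (SE 0.29) and the membrane subunit gene Atp5k by 0.21 (SE 0.18). By preparation the median over complex V was 0.14, -0.35, -0.30 and -0.13, so preparation 1 went the other way. The name rule also takes Atp5s and Atp5sl, which do not encode structural subunits of the ATP synthase. They differed by -0.22 and -0.08 and are counted among the 12 negative differences.

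**Figure D3:**
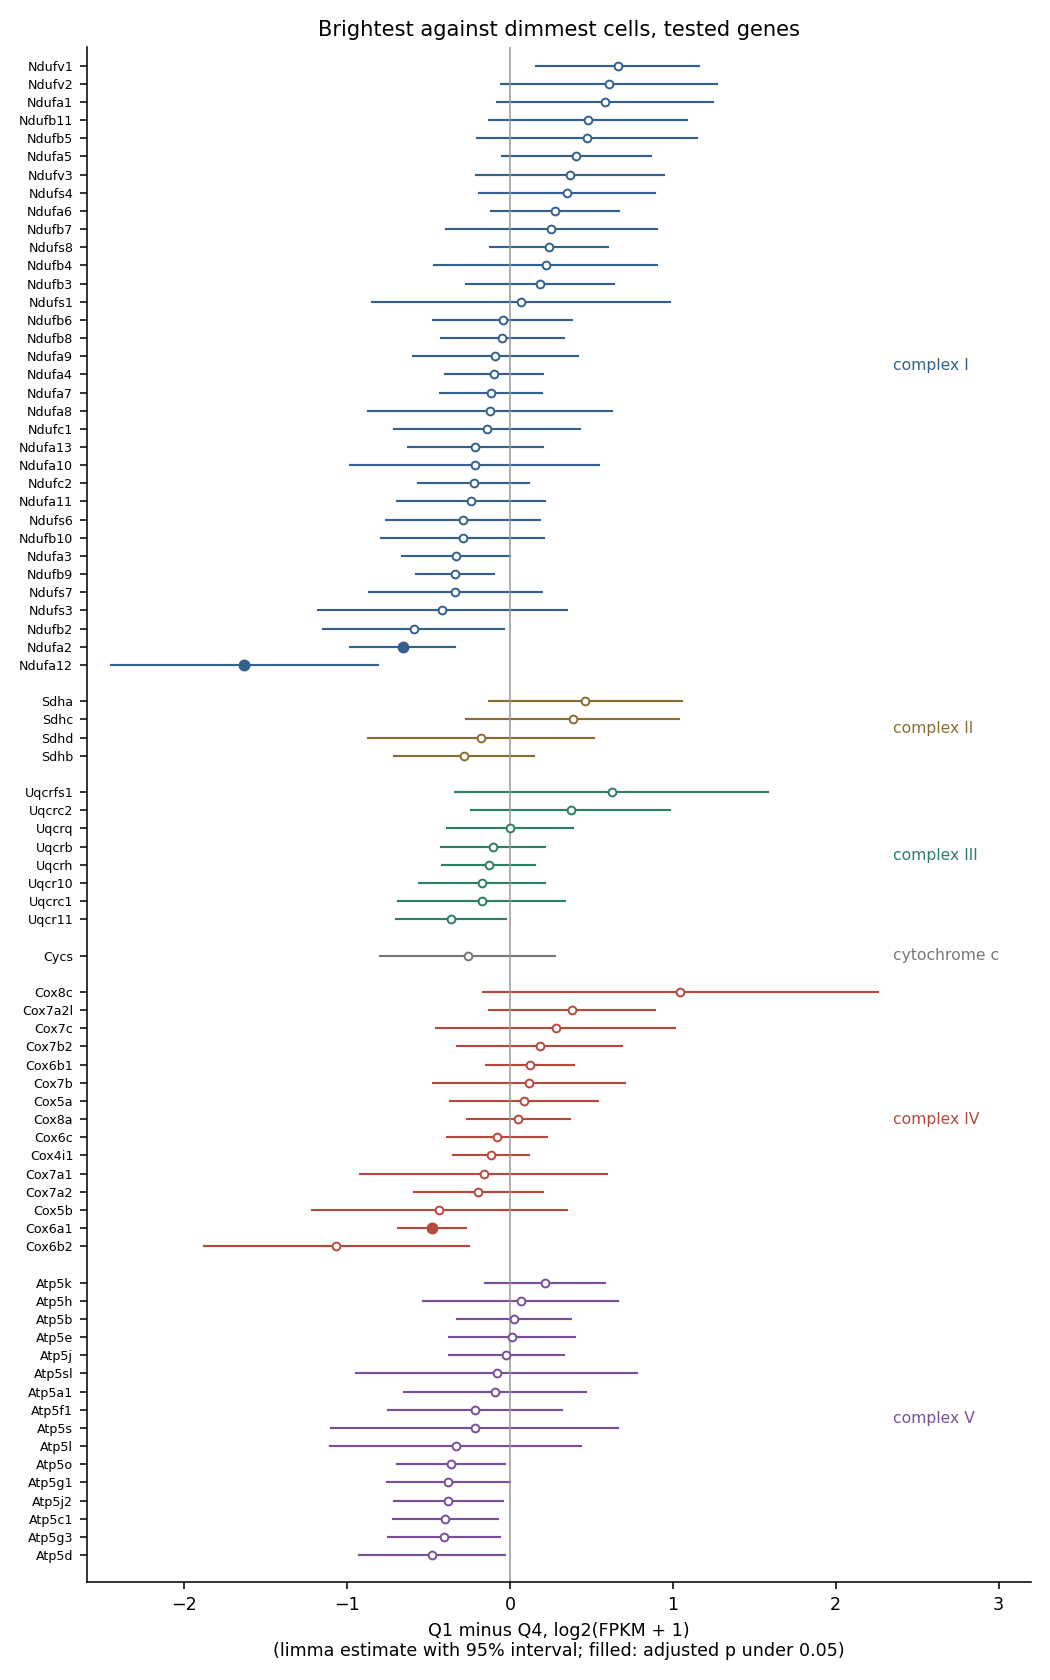
Difference between Q1 and Q4 in mean log2(FPKM + 1) for 78 tested genes by complex, as the limma estimate with its 95% interval; filled points passed at an adjusted p under 0.05. The 3 filled points, Ndufa12, Ndufa2 and Cox6a1, lie left of 0, and 12 of 16 complex V points lie left of 0. Over all tested genes, 40.4% of differences were negative.

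As a share of a cell's summed FPKM, the genes took 6.67%, 5.66%, 6.06% and 6.47% in Q1 of preparations 1 to 4 and 6.71%, 6.95%, 7.27% and 6.51% in Q4. Over preparations it averaged 6.21% ± 0.45 for Q1 against 6.86% ± 0.33 for Q4 (SD, n = 4). The share was lower in Q1 in each preparation, with differences of -0.04, -1.29, -1.21 and -0.05 percentage points in preparations 1 to 4, and the ranges of the groups overlapped. Preparations 2 and 3 therefore carry nearly all of the mean difference of -0.65 points. Q3 and Q2 lay between, at 6.33% ± 0.32 and 6.46% ± 0.22. Complex IV took 1.74% ± 0.12 in Q1 and 1.98% ± 0.13 in Q4, complex I 2.51% ± 0.19 in Q1 and 2.69% ± 0.14 in Q4, and complex V 1.12% ± 0.10 in Q1 and 1.29% ± 0.07 in Q4. Complex III took 0.66% ± 0.04 in Q1 and 0.71% ± 0.04 in Q4, and complex II 0.18% in Q1 and 0.19% in Q4. A share depends on the level of all other genes as well, and no test was made on it. On the log2 scale, where each member counts equally, the mean over all tested members was 7.12 ± 0.19 in Q1 and 7.17 ± 0.26 in Q4. By complex it was 7.23 ± 0.21 in Q1 and 7.24 ± 0.39 in Q4 for complex I, 7.04 ± 0.37 in Q1 and 6.94 ± 0.31 in Q4 for complex II, and 7.79 ± 0.24 in Q1 and 7.79 ± 0.25 in Q4 for complex III. For complex IV it was 6.95 ± 0.18 in Q1 and 6.97 ± 0.09 in Q4, and for complex V 7.11 ± 0.12 in Q1 and 7.30 ± 0.22 in Q4.

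**Figure D4:**
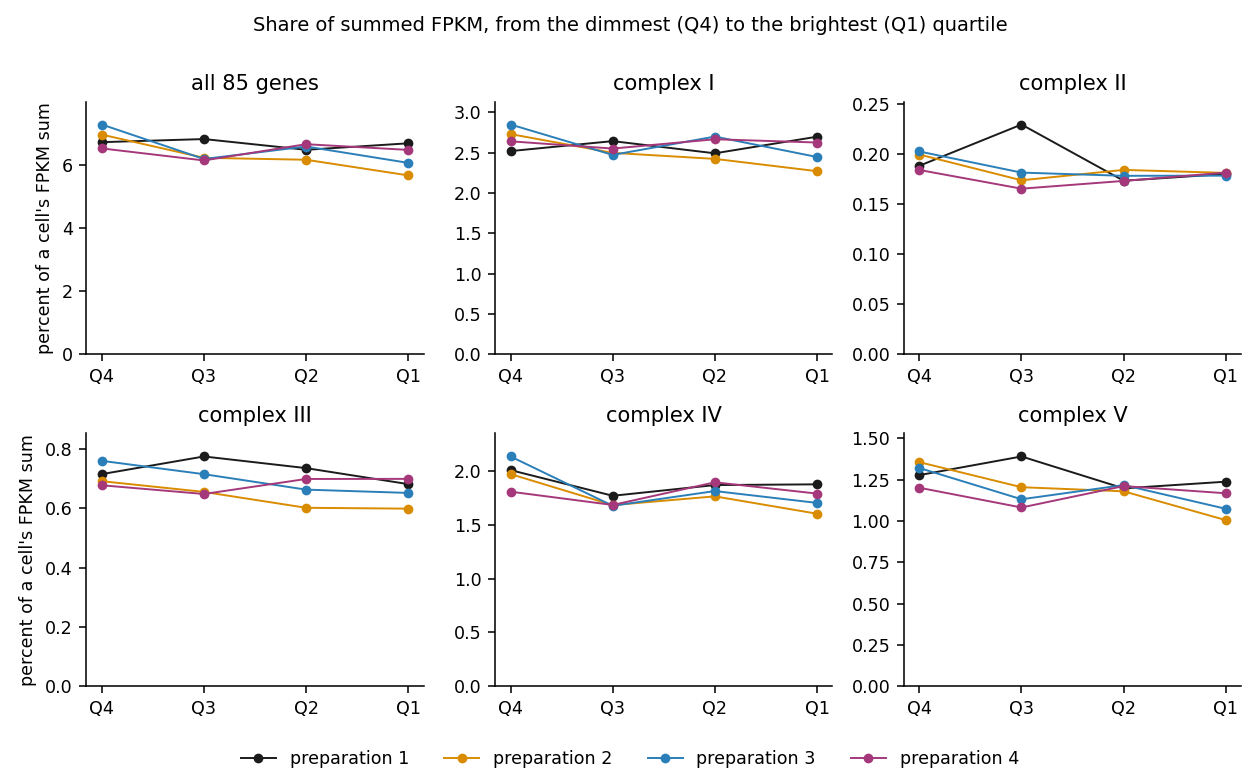
Percent of a cell's summed FPKM, averaged over the cells of each preparation, by quartile from Q4 to Q1, for all 85 genes and for each complex; axes start at 0. For all genes, preparations 2 and 3 stand at 5.66% and 6.06% in Q1 and at 6.95% and 7.27% in Q4, while preparations 1 and 4 are nearly level.

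Preparations differed more than quartiles for most members. The range of a gene's mean over the 4 preparations exceeded its range over the 4 quartiles for 51 of 79 members (64.6%), beside 71.6% of all tested genes, and the members' median range was 0.49 over preparations and 0.38 over quartiles. Preparation 1, with the fewest genes per cell, was lowest for 51 members, and for 76.5% of all tested genes. Genes named here for their spread were picked after the values were seen. Ndufa8, an accessory complex I subunit, stood at 4.67, 7.38, 7.36 and 7.79 in preparations 1 to 4, and Uqcrc1 at 5.32, 7.60, 7.53 and 7.87. Uqcrc1 was detected in 64.7% to 88.9% of cells in the quartiles of preparation 1 and in 95% to 100% elsewhere. At the other end, Ndufa13 varied by 0.04 over preparations, at 7.41, 7.45, 7.45 and 7.43, and Ndufb9 by 0.09.

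Several subunits have a common and a tissue form, and the measured levels of the forms were uneven. Cox7b2, a form of the small subunit VIIb used mainly in testis, averaged 340 FPKM and reached 1 FPKM in 295 of 300 cells, against 78.9 FPKM for the common form Cox7b in 293 cells. Cox7b2 exceeded Cox7b in 272 cells (90.7%), and over the 16 preparation and quartile means its share of their summed FPKM ran from 65.3% to 86.4%. Cox7b aligns with 2 annotated pseudogenes, at 96.2% identity over 238 bases and 96.7% over 241, and Cox7b2 with 0. The part of those copies in the level of Cox7b was not tested. Cox7b2 differed by 0.18 between Q1 and Q4 (SE 0.25, adjusted p = 0.785, 95% interval from -0.32 to 0.69) and Cox7b by 0.12 (SE 0.29, adjusted p = 0.893). Neither difference passed.

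The other tissue forms were minor and patchy. Cox8c, the testis form of subunit VIII, stood at 1 FPKM or more in 162 cells, with a median of 74.7 FPKM in those cells, while the common Cox8a averaged 610 FPKM and Cox8c 61.9 over all cells. By preparation Cox8c was 2.90, 3.27, 5.55 and 4.58 in Q1 and 2.98, 4.48, 1.00 and 3.65 in Q4 on the log2 scale. Q1 was higher in preparations 3 and 4 and lower in preparations 1 and 2, and the difference of 1.05 did not pass (SE 0.59, adjusted p = 0.393). Cox6b2, the testis form of subunit VIb, stood at that level in 108 cells. Its log2 level was 0.20, 1.67, 0.82 and 2.56 in Q1 and 2.34, 2.06, 1.66 and 3.46 in Q4, lower in Q1 in each preparation but with overlap, and its difference of -1.07 did not pass (SE 0.40, adjusted p = 0.155). Cox7a1, the heart and skeletal muscle form of subunit VIIa, was at 1 FPKM or more in 107 cells and averaged 31.5 FPKM beside 390 FPKM for Cox7a2, and it differed by -0.16 (SE 0.37).

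The muscle and inducible forms Cox6a2, Cox4i2 and Ndufa4l2 stood at 1 FPKM in 4, 2 and 6 cells, Atp5g2 in 2, and Cox8b in 0 of 300 cells, which with Ndufs5 in 15 cells makes up the 6 members below the filter. Atp5g2 aligns over the 441 bases of its transcript with 2 annotated pseudogenes at 100% identity. The part of those copies in its low value was not tested. Atp5g1 averaged 272 FPKM beside 911 FPKM for Atp5g3, and exceeded it in 29 cells. Atp5g1 aligns with 1 annotated pseudogene, at 99.8% identity over 411 bases, and Atp5g3 with 0. The part of that copy in the level of Atp5g1 was not tested.

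**Figure D5:**
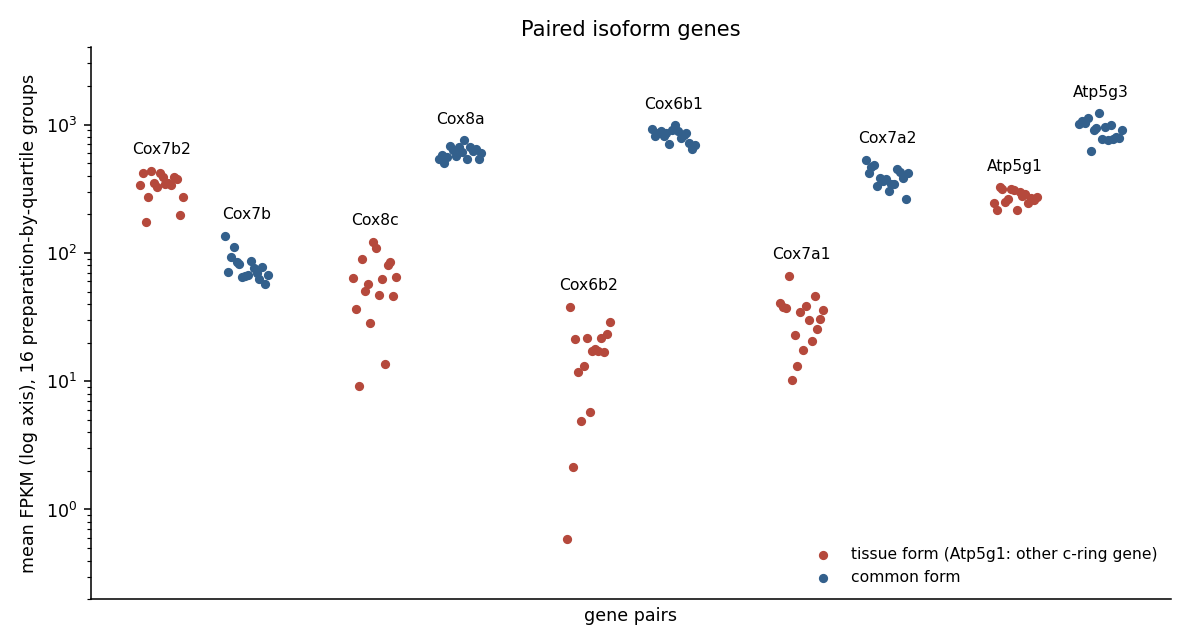
Mean FPKM (log axis) of 5 gene pairs in each of the 16 preparation and quartile groups, 1 point per group, with the tissue form, or for the c-ring pair Atp5g1, left of the common form. Cox7b2 lies above Cox7b in the pair at the left, whereas Cox8c, Cox6b2, Cox7a1 and Atp5g1 lie below their partners.

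Cytochrome c showed a further such split. Cycs, the somatic gene, averaged 2.11 FPKM and stood at 1 FPKM or more in 175 cells. Cyct, the testis gene, which the name rule does not take, averaged 136 FPKM and stood at that level in 277 cells. Cycs was 0.67, 1.01, 1.38 and 1.54 in Q1 and 1.21, 1.30, 1.50 and 1.63 in Q4 on the log2 scale, with overlap, a difference of -0.26 (SE 0.26, adjusted p = 0.687), and Cyct differed by 0.35 (SE 0.34, adjusted p = 0.677). Cycs also aligns at 95% identity or more, over at least 200 bases or 50% of its own transcript, with 4 other annotated genes, 3 of them pseudogenes. The part of those copies in its low value was not tested.

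Near-identical copies touched many of the low members. Tissue forms aside, 12 subunit genes had a mean under 60 FPKM, a level chosen after the values were seen. Of these, 9 had such a copy or overlapping gene in the annotation, against 17 of the other 73 members. The 73 are not all higher genes. They include Cox4i2, Cox6a2, Cox6b2, Cox7a1, Cox8b, Ndufa4l2, Atp5s and Atp5sl, which were set aside. Each of these also had a mean under 60 FPKM, and each had 0 such copies or overlapping genes, which widens the contrast. Atp5l, the g subunit of the ATP synthase, had 8 pseudogene copies and 13.8 FPKM, and Atp5h had 4 and 51.97 FPKM. Cox5b and Uqcrfs1, the second at 57.2 FPKM, were among those with 0. A pair with values for both was Ndufs5, an accessory subunit of complex I on chromosome 4 from 123712710 to 123718202, and BC002163, annotated as a processed pseudogene on chromosome 16. They align over 319 bases at 99.4% identity. Ndufs5 averaged 3.65 FPKM and stood at 1 FPKM or more in 15 cells, whereas BC002163 averaged 207 FPKM and stood there in 299 cells. BC002163 did not differ beyond its error between Q1 and Q4 (-0.15, SE 0.25, adjusted p = 0.834). How the reads were shared between the loci was not tested. Ndufa12, which passed the test above, likewise has a copy, Gm15920 on chromosome 5, at 99.5% identity over 402 bases, and no value is given here for that copy, so the level of Ndufa12 is uncertain. The stretches below are shown because they hold differences between each gene and its copy within the aligned bases. The alignments cover 319 of 525 bases of the Ndufs5 transcript and 402 of 1110 bases of the Ndufa12 transcript. The rest of each transcript, which may also separate gene and copy, is not compared here. They are coding stretches of the GENCODE M21 transcripts, and capitals mark the bases at which gene and copy differ. Within the aligned bases, Ndufs5 and BC002163 differ at 2 bases, both shown. Ndufa12 and Gm15920 differ at 2, of which the 1 that lies away from the ends of the coding part is shown. Whether the other lies in the coding part is not given.
Ndufs5: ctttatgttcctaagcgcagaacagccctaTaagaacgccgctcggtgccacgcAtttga
BC002163: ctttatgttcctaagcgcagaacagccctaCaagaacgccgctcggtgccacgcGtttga
Ndufa12: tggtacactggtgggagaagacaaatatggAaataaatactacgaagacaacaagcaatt
Gm15920: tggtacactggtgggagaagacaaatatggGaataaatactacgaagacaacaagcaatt

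Promoter letters were looked up for the members because their levels are high and many are known targets of the same activators. The RefSeq table for GRCm38.p6 holds 300 bases around the start of 67 of the 85 genes. The letters GCGCANGCG of nuclear respiratory factor 1 (NRF1), searched on both strands and counted whether or not they overlapped another motif, were in 21 of 67 member genes (31.3%) and in 7.03% of all genes in the table. AAGATGGCG (YY1) was in 10.4% of members and 1.64% of all genes, CCGGAAGT (ETS factors such as GABP) in 7.46% of members and 4.31% of all genes, and TCAAGGTCA (ESRRA) in 2.99% of members and 0.466% of all genes. GGGCGG (Sp1) was in 40.3% of members and 38.2% of all genes, and ATTGG (NFY) in 44.8% of members and 41.1% of all genes. The 19 tested members with the NRF1 letters had a median difference between Q1 and Q4 of -0.24 and the 45 without them -0.05, given as a description. Below are the promoters of Cox6a1 (chr5:115348909-115349208, minus strand), which passed the test, Ndufa12 (chr10:94198785-94199084, plus strand), which also did, and Cycs (chr6:50566520-50566819, minus strand), whose human and rat counterparts NRF1 is known to bind. They read 5′ to 3′ along the gene with matches to the NRF1, ETS or YY1 letters in capitals. Cox6a1 holds 3 NRF1 matches, of which a pair overlap on opposite strands and appear as 1 run, Cycs holds 1, and Ndufa12 holds 0.
Cox6a1: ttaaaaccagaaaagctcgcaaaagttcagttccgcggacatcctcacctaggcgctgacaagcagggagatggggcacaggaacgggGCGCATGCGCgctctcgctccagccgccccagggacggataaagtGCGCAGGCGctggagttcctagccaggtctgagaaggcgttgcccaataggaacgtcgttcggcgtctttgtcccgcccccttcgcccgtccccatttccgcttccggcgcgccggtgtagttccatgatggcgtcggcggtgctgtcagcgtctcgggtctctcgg
Ndufa12: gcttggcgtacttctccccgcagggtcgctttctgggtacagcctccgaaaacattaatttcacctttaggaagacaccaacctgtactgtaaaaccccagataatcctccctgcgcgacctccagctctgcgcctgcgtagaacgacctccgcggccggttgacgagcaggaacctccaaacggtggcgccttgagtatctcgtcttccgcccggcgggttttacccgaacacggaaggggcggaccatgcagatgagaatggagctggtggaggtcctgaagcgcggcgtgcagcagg
Cycs: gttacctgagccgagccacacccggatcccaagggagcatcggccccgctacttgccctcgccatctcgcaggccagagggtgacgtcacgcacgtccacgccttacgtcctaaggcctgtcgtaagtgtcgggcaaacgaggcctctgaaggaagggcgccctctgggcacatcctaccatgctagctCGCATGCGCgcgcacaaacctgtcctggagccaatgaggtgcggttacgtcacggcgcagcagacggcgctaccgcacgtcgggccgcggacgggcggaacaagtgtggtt

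Outside the respiratory chain itself, 2 genes whose proteins import ADP and export ATP were higher in bright cells. Among 18 subunits and partners outside the name rule, 2 were higher and 0 lower in Q1. At the same threshold, 2.72% of all tested genes were higher and 0.528% lower, which also stands beside the list counts below. The 2 higher partners both encode adenine nucleotide carriers of the inner membrane. Slc25a4 had log2 levels of 4.01, 6.47, 6.29 and 6.22 in Q1, against 2.91, 4.24, 4.11 and 3.14 in Q4. Q1 was higher in each preparation with a slight overlap across preparations, and the difference was 2.15 (SE 0.45, adjusted p = 0.00621). As the log2 of the mean FPKM it was 0.69 (adjusted p = 0.320), and the call was also lost without preparation 4 (1.84, adjusted p = 0.0550) and without an expression filter (adjusted p = 0.0511). Slc25a5 differed by 1.08 (SE 0.30, adjusted p = 0.0408), a call lost in 11 of 13 alternatives, among them without preparation 1, 2, 3 or 4 (adjusted p = 0.111, 0.0652, 0.109 and 0.220). The germ cell form of that carrier, Slc25a31, averaged 305 FPKM and differed by -0.38 (SE 0.22, adjusted p = 0.418). Of 37 tested assembly factors, 15 genes of the TCA cycle, 15 of mitochondrial DNA expression and 10 transcription factors of respiratory genes, 0 passed in either direction in limma, with medians of 0.13, 0.03, 0.24 and 0.36, beside 0.10 over all tested genes. At an unadjusted p under 0.05, which 12.03% of all tested genes reached as higher and 4.32% as lower, the 18 partners had 4 higher and 1 lower, the assembly factors 4 higher and 0 lower, the TCA cycle 2 and 2, mitochondrial DNA expression 1 higher and 2 lower, and the transcription factors 0 higher and 1 lower. Of 76 mitochondrial ribosomal protein genes 1 was lower, Mrps11 of the small subunit, at -1.33 (SE 0.35, adjusted p = 0.0309), and 0 were higher, with a median of -0.09 and 4 higher and 2 lower at an unadjusted p under 0.05. Mrps11 lost its call without preparation 2, 3 or 4 (adjusted p = 0.0867, 0.146 and 0.0857). Without preparation as a block, Slc25a4, Slc25a5 and Mrps11 all lost their calls (adjusted p = 0.127, 0.229 and 0.268). The gene for NRF1 itself averaged 26.3 FPKM and differed by 0.34 (SE 0.44, adjusted p = 0.766), while Esrra stood at 1 FPKM in 21 cells and Ppargc1a, a co-activator of respiratory genes in other tissues, in 2.

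Across single cells the members varied together weakly. Among members at 1 FPKM or more in at least 95% of the cells of a preparation, the median Spearman correlation between members was 0.058, 0.078, 0.084 and 0.133 in preparations 1 to 4, over 67, 82, 71 and 80 cells. Between all genes that met the same level it was 0.027, 0.016, 0.019 and 0.034. Members of the same complex correlated at 0.054, 0.074, 0.082 and 0.126, not above members of different complexes at 0.059, 0.080, 0.085 and 0.137. The cells of a preparation share a chip, and FPKM values of a cell share its total, so these values are given as a description.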

How the data were processed

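Values were the authors' deposited FPKM for 300 cells. No unit stands in the header: the submitters' processing notes list Cufflinks, whose output is FPKM, and TopHat, Picard and FastQC, with GRCm38 and mm10 as builds and no versions. A cell's deposited FPKM summed to 348305 to 682985, 0 columns lacked a sample, and 0 were identical. Quartiles came from the labels. The number in each sample title was read as the preparation, since the labels name 4 preparations. Each came from several mice, so p-values weigh a mean difference between quartiles against the residual spread from pool to pool. That spread is estimated over all 4 quartiles and includes the sampling of 15 to 22 cells per mean.

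From the FPKM values, log2(FPKM + 1) was averaged over the cells of each preparation and quartile, giving 16 means per gene. Genes at 1 FPKM or more in at least 30 cells (10411) were fitted with limma 3.58.1 in R 4.3.3 (variance trend, robust), with quartile and, as a block, preparation. Contrasts were Q1 minus Q4 and a linear trend per quartile, and p-values were adjusted by Benjamini-Hochberg over all tested genes at a threshold of 0.05. The added 1 shrinks the log2 difference of low genes. For patchy genes, a mean over cells of log2 values can also exceed the change in mean FPKM. Ndufa12 differed by -1.63 as reported, -2.27 with a pseudocount of 0.1 FPKM and -1.09 as the log2 of the mean FPKM. Cox8c differed by 1.05, with mean FPKM of 75.9 in Q1 and 72.4 in Q4. The pairing comes from the shared animals and chip of a preparation: once quartile means were subtracted, means of the same preparation correlated across genes at 0.0112 to 0.360 (median 0.129), and means of different preparations at a median of -0.136. The subtraction itself pushes means of different preparations towards negative correlation, so the second median does not by itself measure the pairing. On simulated data with 200 changed genes the test was checked before use. Copies were transcripts of GENCODE M21 with at least 95% identity by blastn 2.17.0 over 200 bases or 50% of the member's transcript. The kit does not mark strand, so reads of overlapping antisense genes cannot be told apart. Named genes were those past the threshold, the extremes and most abundant of each complex, an isoform list and members below the filter; others are named to complete a role, and 1 gene is not reported here. Members and lists were chosen with earlier results of these data known. Alternatives were the pseudocount, filter, scaling, centring, block, depth covariate, averaging, weights and leaving out each preparation.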

Additional observations from a re-analysis of the deposited data

Results flagged for a closer look

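In groups of 4 preparations, 96 group values were checked for a preparation far from the other 3 by Dixon's ratio at its 95% critical value, and 10 stood out; chance gives about 1 in 20. Preparation 1 accounts for 5 of them. In Q4 it was low for Uqcrc1, at 5.68 on the log2 scale beside 7.56 to 7.74, and in Q1 for Uqcrc1, at 4.98 beside 7.60 to 7.72, and for Ndufv1, at 6.72 beside 7.59 to 7.63. In Q4 it was high for Cox7b, at 5.90 beside 5.66 to 5.69. In Q3 the members' share of summed FPKM was 6.81% in preparation 1 and 6.13% to 6.22% in the others. Preparation 2 was low for Ndufa12 in Q1, at 2.17 beside 3.47 to 3.51. Preparation 3 was low in Q1 for Sdha, at 6.05 beside 6.57 to 6.64, and for Sdhc, at 5.80 beside 6.81 to 6.91, and high in Q4 for Sdhd, at 7.57 beside 6.97 to 7.05. Preparation 4 was low in Q4 for Cox7a2l, at 6.48 beside 7.26 to 7.41. Preparation 1 also held the fewest genes per cell, and the part of this in its values was not tested.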

How the results depend on the processing

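The count of members higher in Q1, and of members rising, stayed at 0 in every alternative run. Of the 3 lower members, counts were 0 without an expression filter, 1 without the preparation block and 0 with genes detected as a covariate in the blocked fit, and leaving out a preparation gave 1 to 2. For the trend the same settings gave 1, 0 and 1 falling members, and leaving out a preparation gave 0 to 2. Without the block Slc25a4, Slc25a5 and Mrps11 also lost their calls. Cox6a1 kept its call between Q1 and Q4 in 10 of 13 alternatives, and the adjusted p over these ran from 0.00220 to 0.130. For Ndufa2 it ran from 0.00754 to 0.211, with 6 of 13 calls lost, and for Ndufa12 from 0.00812 to 0.194, with 7 of 13 lost. Ndufb9 passed after centring (-0.51, adjusted p = 0.0402).

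The complex medians depended on scaling. Centring each mean on its median gene took the median over all genes, 0.10 as reported, to -0.08 and that over the members, -0.10 as reported, to -0.28, since it shifts every gene alike. Genes detected as a covariate took both to -0.013, which left no gap between them. Centring took complex III to -0.30, complex IV to -0.13 and complex II to -0.08, and the covariate gave 0.013 for complex III and 0.024 for complex I. Complexes I to IV each changed sign in at least 1 alternative, and complex V was negative in every alternative run, from -0.39 to -0.15. The difference in share was -0.65 percentage points and ran from -0.85 to -0.43 when a preparation was left out. The causes were not tested. With 4 preparations of 15 to 22 cells per quartile, and no read counts, small differences of low genes such as Cycs and Ndufb4 are not resolved.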
